A study of Mus musculus with 12 samples.

Results

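The cytokine mRNA decay factors described here are 8 genes whose proteins bind cytokine mRNAs and set how long those mRNAs last. They are *Zfp36* (NCBI Gene 22695), *Zfp36l1* (12192), *Zfp36l2* (12193), *Zc3h12a* (230738), *Zc3h12c* (244871), *Rc3h1* (381305), *Elavl1* (15568) and *Khsrp* (16549). They were taken by symbol from the 16234 genes of a count table, and all 8 were among the 12208 genes that passed the filter on low counts. Their RNA was measured by RNA-seq in 12 libraries of bone marrow-derived mast cells (BMMCs), which are mast cells grown from mouse bone marrow in IL-3 and stem cell factor for 4 to 8 weeks. The donors were a line lacking *Elk4* in all cells, on the C57BL/6N background, and littermates with the intact gene, of both sexes and 6 to 12 weeks old. By *Elk4* genotype the labels are WT (wild type), HZ (heterozygous) and KO (knockout), with 2 unstimulated and 2 stimulated libraries for each label. For stimulation through FcϵRI, the high-affinity IgE receptor, cells were loaded with 0.5 µg/ml anti-DNP IgE overnight and given 100 ng/ml DNP-HSA, the antigen, for 1 h. Which animal gave which library, and whether the unstimulated cells were loaded with IgE, was not stated in the sources used here. If the 2 libraries of a group came from 1 culture, the p-values measure technical spread only.

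Many cytokine mRNAs carry AU-rich elements in their 3′ untranslated region (UTR), and proteins that bind these elements hasten or delay the loss of the poly(A) tail. The ZFP36 proteins (ZFP36 is also called tristetraprolin or TTP) bind the element and bring in the CCR4-NOT deadenylase, which shortens the tail. Regnase-1 (encoded by *Zc3h12a*) is an endonuclease that cuts stem-loops in the UTRs of *Il6* and other mRNAs, and *Zc3h12c* encodes its relative Regnase-3. Roquin-1 (*Rc3h1*) binds stem-loops and recruits the same deadenylase. KHSRP (*Khsrp*) promotes decay of AU-rich mRNAs, whereas HuR (*Elavl1*) binds and stabilizes them. In mast cells, antigen brings a burst of *Tnf* and other cytokine mRNAs, which are targets of these proteins.

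The nonamer TTATTTATT is the core of the AU-rich element that ZFP36 proteins bind. It was searched in the longest annotated 3′ UTR of each gene (GENCODE M21, GRCm38), on the sense strand only and counting overlapping matches. *Elavl1* held 8 nonamers, *Zfp36*, *Zfp36l1*, *Zfp36l2* and *Rc3h1* held 1 each, and *Zc3h12a*, *Zc3h12c* and *Khsrp* held 0. The targets varied. *Tnf* held 5, *Csf2* held 4 and *Ptgs2* held 1, while *Il3*, *Il6*, *Nfkbid* and other targets held 0. The annotated UTR of *Il3* had 101 bases, against 317 in *Csf2* and 764 in *Tnf*, so its 0 covers a short stretch only. Of the 11731 genes tested that had a UTR matched by symbol, 8.04% held at least 1 nonamer. Each window of 29 bases below shows the first nonamer of the gene named, in capitals together with any nonamer that overlaps it. The single match in the ZFP36 family can so be set beside the overlapping matches in *Elavl1*, *Tnf* and *Csf2*.
Zfp36, chr7:28376951-28376979, minus strand: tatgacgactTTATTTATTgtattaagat
Zfp36l1, chr12:80108167-80108195, minus strand: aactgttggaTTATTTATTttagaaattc
Zfp36l2, chr17:84184914-84184942, minus strand: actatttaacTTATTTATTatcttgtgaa
Elavl1, chr8:4285788-4285816, minus strand: gtcatgaaaaTTATTTATTTATTTATTta
Tnf, chr17:35199689-35199717, minus strand: tttgcacttaTTATTTATTATTTATTtat
Csf2, chr11:54247329-54247357, minus strand: ttttaaatatTTATTTATTTATTTATTta

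The 250 bases before the start site were read from RefSeq (GRCm38.p6) for 7 of the 8 genes. *Zfp36l2* was not matched, and *Zc3h12c* had 2 start sites. Both strands were searched for 7 motifs. One was the CArG box bound by serum response factor. Another was CCGGAA, the kind of site that ELK4 and other Ets factors bind. The others were the EGR site GCGGGGGCG, the AP-1 site TGANTCA, the cAMP response element TGACGTCA, an NF-κB site (3 G, any 2 bases, 3 T and 2 C) and the TATA box, spelled TATAAA. ELK4 is a ternary complex factor, which binds DNA together with serum response factor, so a CArG box with an Ets core near it is shown here. *Zfp36* was the only gene of the 7 with a CArG box, 58 to 49 bases before the start, and it also held CCGGAA at 92 to 87 and GCGGGGGCG at 105 to 97. *Zfp36l1* held TGATTCA at 129 to 123 and TATAAA at 29 to 24, *Zc3h12a* held CCGGAA on the opposite strand at 218 to 213, and *Rc3h1* held TGACTCA. None of the 7 motifs occurred in the windows of *Elavl1*, *Khsrp* and *Zc3h12c*. Of 32851 RefSeq windows of this length, 1.47% held a CArG box, 12% CCGGAA, 2.57% GCGGGGGCG, 6.75% TGANTCA, 1.55% TGACGTCA, 1.41% the NF-κB site and 12.4% TATAAA. The matches, in capitals, are letters in a window and were not tested for binding.
Zfp36, chr7:28379229-28379478, minus strand: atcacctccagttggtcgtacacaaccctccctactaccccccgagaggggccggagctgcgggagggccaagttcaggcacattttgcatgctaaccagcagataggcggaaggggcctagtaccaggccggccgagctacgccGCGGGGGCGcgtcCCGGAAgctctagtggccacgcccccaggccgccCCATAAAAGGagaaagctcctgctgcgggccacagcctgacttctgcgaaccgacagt
Zfp36l1, chr12:80113014-80113263, minus strand: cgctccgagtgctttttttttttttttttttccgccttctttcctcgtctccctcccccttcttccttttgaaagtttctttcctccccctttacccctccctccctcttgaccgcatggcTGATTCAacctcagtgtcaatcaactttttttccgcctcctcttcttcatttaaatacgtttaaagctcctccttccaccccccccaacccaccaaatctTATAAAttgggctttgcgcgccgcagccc
Zc3h12a, chr4:125127882-125128131, minus strand: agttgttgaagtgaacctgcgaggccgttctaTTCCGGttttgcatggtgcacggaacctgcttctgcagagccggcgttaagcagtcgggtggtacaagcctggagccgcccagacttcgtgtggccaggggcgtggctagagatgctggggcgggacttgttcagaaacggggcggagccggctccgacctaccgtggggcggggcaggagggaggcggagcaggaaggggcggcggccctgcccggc

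Library totals lay between 29697958 and 35531667 counts on genes. The mast cell markers *Kit*, *Fcer1a*, *Ms4a2*, *Cpa3*, *Cma1*, *Tpsb2*, *Hdc* and *Gata2* were detected in every library, with a summed level of 46410 to 57060 CPM (read counts scaled to library size) unstimulated, highest in HZ, and 48750 to 51380 stimulated. Of these, 7 were at 1040 CPM or more in every library, while *Hdc* ranged from 16.9 to 1120 CPM and rose with stimulation (log2 fold change 3.14 in WT). Of 18 markers of other marrow cells, 14 were listed and 5 passed the filter. Their summed level was 9.81 to 14.2 CPM unstimulated and 14.9 to 21.6 stimulated, with *Mcpt8* at 4.68 to 11 and *Adgre1* at 2.96 to 7.26, and *Flt3* and *S100a8* had at most 1 count in any library. Their part in the results was not tested. *Elk4* itself had 2426 and 2740 counts in unstimulated WT, while HZ had 3238 and 2837 and KO had 2613 and 2253, so its gene-wide count did not follow the labels, and the groups are named by label throughout. A partial deletion would not be visible in such a count. The study reported the deletion by western blot in BMMCs of the WT, HZ and KO genotypes. Replicates of every group differed by more than sampling noise, and none was a copy of another.

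In WT BMMCs, 7 of the 8 decay factors were higher and 1 was lower after stimulation, at an adjusted p below 0.05 by edgeR (quasi-likelihood test, Benjamini-Hochberg adjustment). Over all genes tested, 22.4% were called higher and 22.9% lower by this rule. With at least a 2-fold change required as well, 5 of 8 were higher (*Zfp36*, *Zfp36l1*, *Zfp36l2*, *Zc3h12a* and *Zc3h12c*) against 3.71% of all genes, and none was lower (3.06%). The median log2 fold change was 1.48 over the 8 genes and -0.01 over all genes. With TMM factors as the scale, the 6 stimulated and 6 unstimulated libraries did not overlap in 7 of the 8 genes, the exception being *Khsrp*. In the deposited FPKM (counts per length of gene model and library total), the states overlapped in *Rc3h1* and *Elavl1* and not in *Khsrp*. *Rc3h1* was at 5.96 to 8.18 FPKM unstimulated and 7.59 to 8.42 stimulated. *Elavl1* was at 9.65 to 13.5 FPKM unstimulated and 11.5 to 12.4 stimulated. How often either holds over all genes was not counted. The levels below are CPM scaled by TMM factors, and a difference is a log2 fold change with its standard error.

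**Figure D1:**
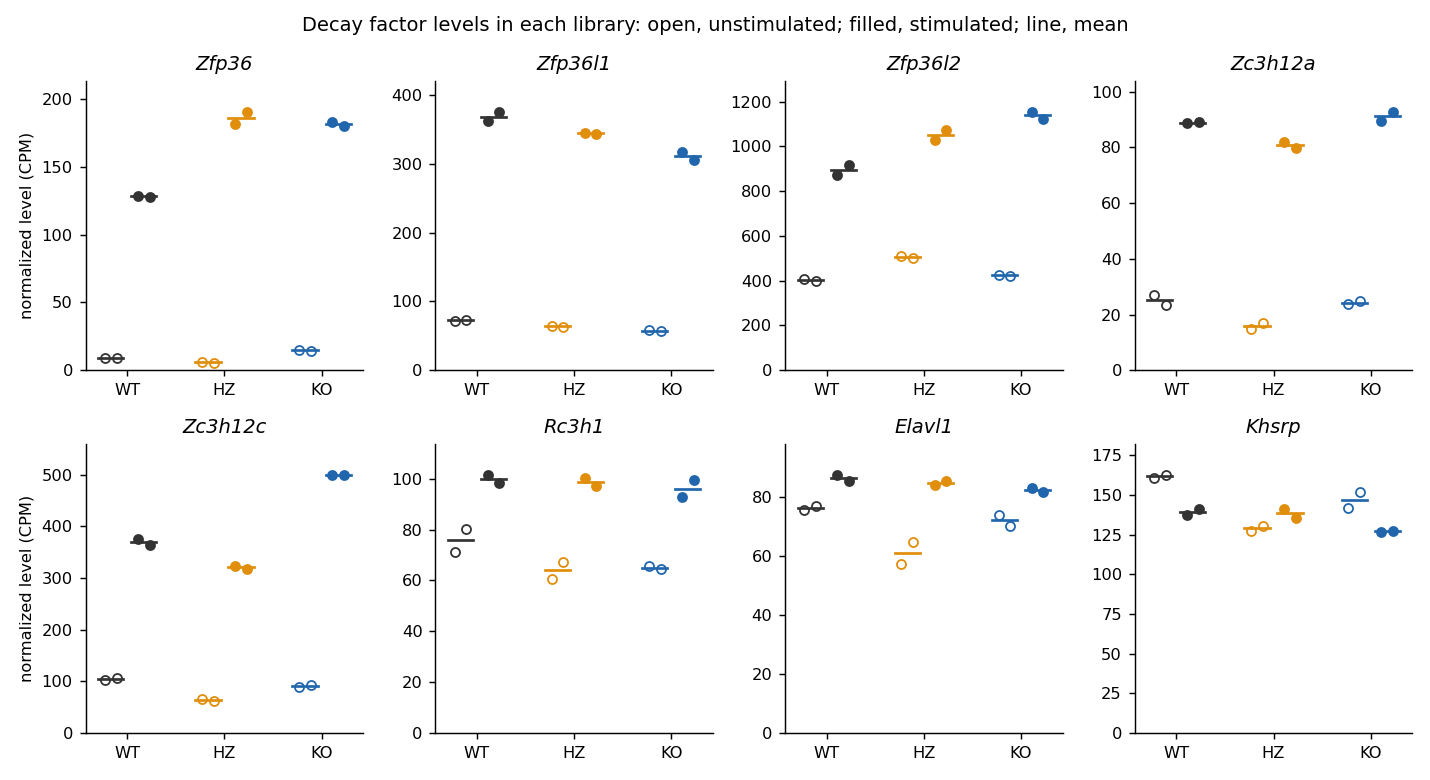
Level of each decay factor in CPM (vertical axis, from 0) by *Elk4* label, with 1 point per library and the mean of 2 as a line. On this TMM scale the filled points (stimulated) all lie above the open points (unstimulated) in every gene but *Khsrp*. *Zc3h12c* in stimulated KO stands at 499.9 and 498.9 CPM, above every other group.

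*Zfp36*, the prototype of the family, was the least abundant of the 3 ZFP36 genes at rest and rose most. It had 294 and 312 counts in unstimulated WT and 3818 and 3801 in stimulated WT, or 8.87 and 8.92 against 128.5 and 127.6 CPM. The log2 fold change was 3.85 (SE 0.06, adjusted p = 2.22e-42 by edgeR), or 14.4-fold, which stood at the 99.2 percentile of all genes. *Zfp36l1* was at 72.1 and 72.9 CPM unstimulated and 362.0 and 375.7 stimulated. Its log2 fold change was 2.35 (SE 0.04, edgeR adjusted p = 7.43e-43), or 5.09-fold. *Zfp36l2*, which was already the most abundant family member at rest, went from 406.2 and 398.3 to 870.4 and 916.8 CPM. Its log2 fold change was 1.15 (SE 0.03, edgeR adjusted p = 4.99e-35), the smallest of the 3 genes. When libraries were scaled by their totals alone, it was 0.84 and so under 2-fold, while the other 4 induced genes stayed above 2-fold.

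The Regnase genes rose by nearly the same factor in WT. *Zc3h12a* was at 27.2 and 23.4 CPM unstimulated and 88.8 and 89.0 stimulated, a log2 fold change of 1.82 (SE 0.07, edgeR adjusted p = 9.88e-28). *Zc3h12c*, the more abundant of the pair in CPM, was at 102.3 and 106.8 unstimulated and 374.8 and 364.4 stimulated, a log2 fold change of 1.82 (SE 0.04, edgeR adjusted p = 7.82e-39). On the TMM scale with all libraries, the remaining 3 genes changed by at most 0.40 (log2). *Rc3h1* went from 71.4 and 80.3 to 101.6 and 98.3 CPM, a log2 fold change of 0.40 (SE 0.05, edgeR adjusted p = 3.78e-08), but with library totals as the scale it was 0.09 (adjusted p = 0.153) and no longer called. *Elavl1* went from 75.5 and 77.1 to 87.6 and 85.5 CPM, a log2 fold change of 0.18 (SE 0.05, edgeR adjusted p = 0.00424) that turned to -0.13 with library totals. *Khsrp*, the only gene of the 8 that fell on the TMM scale, went from 160.7 and 162.8 to 137.4 and 141.1 CPM. Its log2 fold change was -0.22 (SE 0.04, edgeR adjusted p = 1.91e-05). Over the alternative scales and tests, it lay between -0.52 and -0.2.

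These small changes depend on the scale because the TMM factors, by which library totals were multiplied, were at least 1.08 in each unstimulated library and at most 0.924 in each stimulated one. Without them the median log2 fold change over all genes was -0.32 in WT, -0.24 in HZ and -0.30 in KO, and 842 genes were called higher and 7397 lower in WT, against 2733 and 2797 with TMM. In HZ the split was 2447 higher and 5902 lower against 4011 and 3853, and in KO 858 and 7296 against 2485 and 2498. Changes are therefore given relative to the bulk of genes. The total RNA per cell was not measured.

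In BMMCs labelled HZ, all 8 decay factors were called higher after stimulation (32.9% of all genes higher and 31.6% lower) and 5 of 8 by at least 2-fold (7.02% of all genes, with 7.28% lower). In BMMCs labelled KO, 7 were higher and *Khsrp* was lower (20.4% of all genes higher and 20.5% lower), with 5 of 8 at least 2-fold higher (3.73% of all genes, with 2.88% lower). The 5 genes past 2-fold were those of WT under each label, except that *Zfp36l2* in HZ was at 0.83 and so under 2-fold with library totals. *Zfp36* had 219 and 179 counts in unstimulated HZ and 5946 and 5627 in stimulated HZ, or 6.31 and 5.43 against 181.2 and 190.3 CPM. This was a log2 fold change of 4.98 (SE 0.07), or 31.6-fold, by edgeR (adjusted p = 2.91e-46). In KO it had 15.2 and 14.4 CPM unstimulated and 182.6 and 179.9 stimulated, a log2 fold change of 3.61 (SE 0.06, edgeR adjusted p = 4.42e-43). *Zfp36* was thus lowest at rest in HZ and highest at rest in KO, with WT between them and no overlap of any 2 labels.

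*Zfp36l1* rose by a log2 fold change of 2.44 in both HZ and KO (SE 0.04 each). Its libraries stood at 64.6 and 62.8 CPM in unstimulated HZ, 58.1 and 56.6 in unstimulated KO, 345.2 and 344.4 in stimulated HZ and 317.9 and 306.2 in stimulated KO. In both states the order was WT, HZ, KO from high to low. *Zfp36l2* rose from 508.7 and 499.5 to 1031 and 1073 CPM in HZ (log2 fold change 1.06, SE 0.03) and from 426.3 and 421.9 to 1154 and 1124 in KO (1.42, SE 0.03). *Zc3h12a* rose from 14.8 and 17.1 to 81.8 and 79.8 CPM in HZ (2.34, SE 0.07) and from 23.7 and 24.9 to 89.5 and 92.7 in KO (1.91, SE 0.07). Its resting level was thus lower in HZ than in both other labels, while its stimulated levels lay within 79.8 to 92.7 CPM under all labels. *Zc3h12c* rose from 65.0 and 61.3 to 323.0 and 318.3 CPM in HZ (2.34, SE 0.04) and from 88.9 and 93.2 to 499.9 and 498.9 in KO (2.46, SE 0.04). The edgeR adjusted p of these 8 rises lay between 3.09e-44 and 1.13e-28. *Rc3h1* rose by 0.63 in HZ and 0.56 in KO on the log2 scale (SE 0.06 each).

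*Elavl1* rose by a log2 fold change of 0.48 in HZ (SE 0.05, edgeR adjusted p = 1.05e-10) and 0.19 in KO (SE 0.05, adjusted p = 0.0027). The KO value turned to -0.09 with library totals, and its adjusted p was 0.0594 without KO unstimulated replicate 2. *Khsrp* was called higher in HZ with a log2 fold change of 0.10 (SE 0.04, edgeR adjusted p = 0.0265), which turned to -0.13 with library totals, and it lost the call without HZ stimulated replicate 1 (adjusted p = 0.225) or HZ unstimulated replicate 1 (adjusted p = 0.131). In KO it fell by 0.21 (SE 0.04, edgeR adjusted p = 4.63e-05). Over the alternative scales and tests, its log2 fold change in KO lay between -0.5 and -0.2. On the TMM scale with all libraries, the stabilizing factor *Elavl1* and *Khsrp* thus moved by at most 0.48 (log2) under every label.

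**Figure D2:**
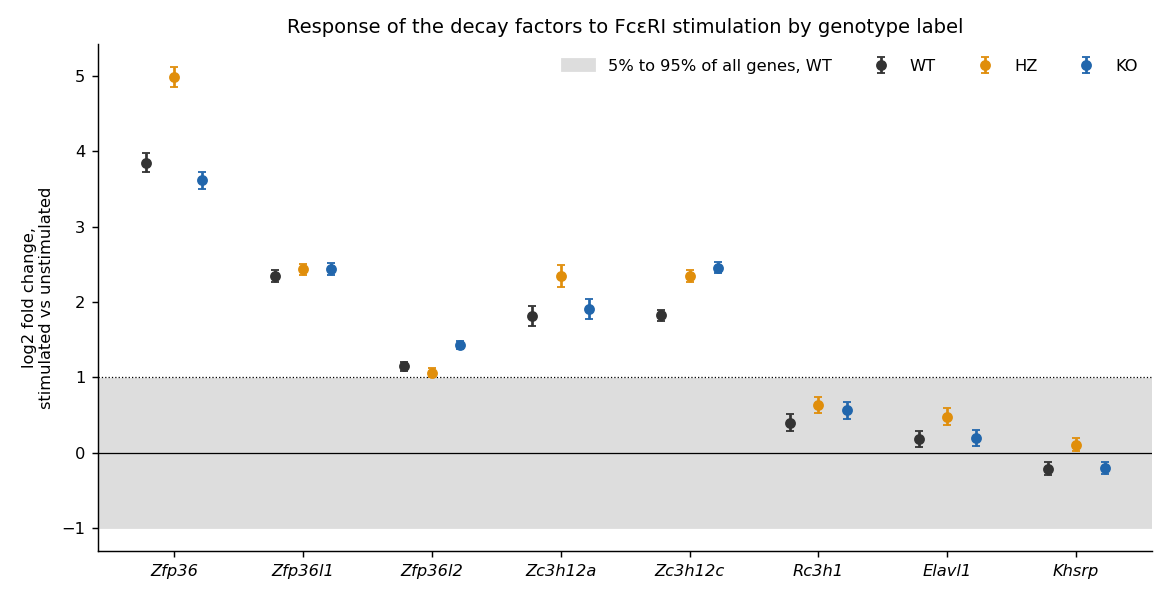
Log2 fold change of each decay factor, stimulated against unstimulated, by *Elk4* label (points) with its 95% interval (bars). The grey band spans the 5th to 95th percentile of all genes in WT and the dotted line marks 2-fold. In HZ that range of all genes was -1.39 to 1.35, which holds *Zfp36l2* in HZ (1.06). *Zfp36* stands at 3.85 in WT, 4.98 in HZ and 3.61 in KO, and *Rc3h1*, *Elavl1* and *Khsrp* lie inside the band; with library totals as the scale, *Elavl1* in WT and KO and *Khsrp* in HZ change sign.

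Before stimulation, BMMCs labelled KO and HZ both differed from WT in these genes, and the differences were not alike. The HZ and KO comparisons share the 2 unstimulated WT libraries. If the libraries of a label came from 1 culture, differences between labels and between cultures cannot be told apart. In HZ, 7 of the 8 genes were lower and 1 was higher than in WT (26% of all genes lower and 25.4% higher). In KO, 4 were lower and 2 higher (21.7% of all genes lower and 22.9% higher). None of the 8 passed 2-fold in either, where 2.64% of all genes were 2-fold higher and 4.87% lower in KO, and 3.83% higher and 5.32% lower in HZ. *Zfp36* was lower in HZ (log2 difference -0.60, SE 0.10, edgeR adjusted p = 7.78e-07) and higher in KO by 0.73 (SE 0.08, adjusted p = 9.27e-11). The KO libraries exceeded the HZ libraries by a log2 difference of 1.33 (SE 0.09, edgeR adjusted p = 1.06e-17), the only gene of the 8 past 2-fold in any comparison of labels, where 1.29% of all genes were at least 2-fold higher in KO than in HZ and 2.06% lower.

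The other ZFP36 genes moved the opposite way from *Zfp36* at rest in at least 1 label. *Zfp36l1* was lower in KO (log2 difference -0.34, SE 0.04, edgeR adjusted p = 2.5e-09) and in HZ (-0.19, SE 0.04, adjusted p = 0.000173). *Zfp36l2* was higher in HZ by 0.33 (SE 0.03, edgeR adjusted p = 8.96e-14) and in KO by 0.08 (SE 0.03, adjusted p = 0.0256). The KO value of *Zfp36l2* was not called with DESeq2 (0.06, adjusted p = 0.0815) or without KO unstimulated replicate 1, KO unstimulated replicate 2 or WT unstimulated replicate 2 (adjusted p from 0.0547 to 0.137).

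Both Regnase genes were lower in unstimulated HZ than in WT, *Zc3h12a* by a log2 difference of -0.66 (SE 0.08, edgeR adjusted p = 4.86e-10) and *Zc3h12c* by -0.73 (SE 0.04, adjusted p = 1.09e-20). In unstimulated KO, *Zc3h12c* was lower by -0.20 (SE 0.04, edgeR adjusted p = 2.64e-05), and for *Zc3h12a* the difference of -0.06 was not called (95% interval -0.20 to 0.09, adjusted p = 0.573). *Rc3h1* was lower in HZ (-0.25) and in KO (-0.22, edgeR adjusted p = 0.000919), the latter with an adjusted p of 0.122 without WT unstimulated replicate 2. *Elavl1* was lower in HZ by -0.33 (SE 0.05, edgeR adjusted p = 1.49e-06), and in KO the difference of -0.08 was not called (95% interval -0.19 to 0.03, adjusted p = 0.218). *Khsrp* was lower in HZ (-0.33, SE 0.04) and in KO (-0.14, SE 0.04, edgeR adjusted p = 0.00393), the latter with an adjusted p of 0.161 without KO unstimulated replicate 1. Set directly against each other, unstimulated KO exceeded HZ in 5 genes and was below it in 2 (23.4% of all genes higher and 21.8% lower). Besides *Zfp36*, the higher ones were *Zc3h12a* (0.61), *Zc3h12c* (0.53), *Elavl1* (0.24) and *Khsrp* (0.19), and the lower ones were *Zfp36l1* (-0.15) and *Zfp36l2* (-0.25).

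**Figure D3:**
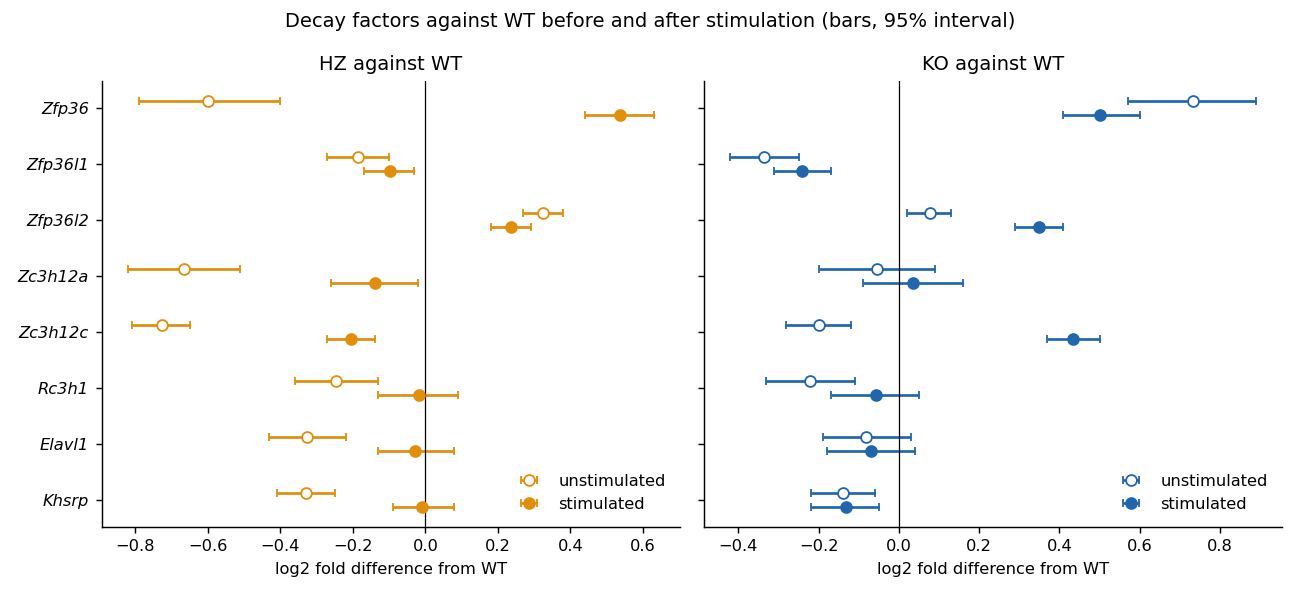
Log2 difference of each decay factor from WT in HZ (left) and KO (right), unstimulated (open) and stimulated (filled), with 95% intervals; values above 0 are higher than in WT. *Zfp36* in HZ lies at -0.60 unstimulated and 0.54 stimulated, and *Zc3h12c* in KO at -0.20 and 0.43.

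After stimulation, *Zfp36* and *Zfp36l2* were higher than in WT under both labels. *Zfp36* was higher by a log2 difference of 0.54 in HZ (SE 0.05, edgeR adjusted p = 2.34e-13) and 0.50 in KO (SE 0.05, adjusted p = 1.31e-12), and between KO and HZ it differed by -0.04 (95% interval -0.13 to 0.06, adjusted p = 0.642). *Zfp36l2* was higher by 0.23 in HZ (SE 0.03, edgeR adjusted p = 1.42e-09) and 0.35 in KO (SE 0.03, adjusted p = 6.48e-15). *Zfp36l1* was lower in KO (-0.24, SE 0.03, edgeR adjusted p = 1e-07) and in HZ (-0.10, SE 0.03, adjusted p = 0.0227), and the HZ call was lost with library totals (adjusted p = 0.113) and without HZ stimulated replicate 1, HZ stimulated replicate 2 or WT stimulated replicate 2 (adjusted p from 0.0927 to 0.267). The 2 stimulated WT libraries are shared by these comparisons.

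*Zc3h12c* went in opposite directions from WT under the 2 labels after stimulation. It was higher in KO by 0.43 (SE 0.03, edgeR adjusted p = 3.83e-15) and lower in HZ (-0.20, SE 0.03, adjusted p = 3.4e-06), so that KO exceeded HZ by 0.64 (SE 0.03, adjusted p = 3.33e-20). Its relative *Zc3h12a* was not called in KO (0.04, 95% interval -0.09 to 0.16) or in HZ (-0.14, 95% interval -0.26 to -0.02, edgeR adjusted p = 0.0727), although the HZ value was called with DESeq2's size factors (adjusted p = 0.0349) and when only the groups compared were fitted (adjusted p = 0.0138). *Khsrp* was lower in KO (-0.13, SE 0.04, edgeR adjusted p = 0.00996), with an adjusted p of 0.067 without KO stimulated replicate 1 and 0.1 without WT stimulated replicate 2. *Rc3h1* and *Elavl1* were not called under either label, and their log2 differences lay between -0.07 and -0.02. Altogether, 3 genes were higher and 2 lower in stimulated KO than in WT (21.2% of all genes higher and 19.2% lower), and 2 were higher and 2 lower in HZ (18.4% higher and 16.5% lower). None passed 2-fold (in KO 3.05% of all genes higher and 4.71% lower, in HZ 1.96% and 2.55%). Against stimulated HZ, stimulated KO was higher in *Zc3h12a*, *Zc3h12c* and *Zfp36l2* and lower in *Zfp36l1* and *Khsrp* (12.9% of all genes higher and 12% lower), none of them past 2-fold (0.729% and 1.37%). Of these 5, *Zc3h12c* was the only gene that stayed called when each single library was left out in turn. Library totals alone called 1263 genes higher and 1843 lower in this comparison, against 1571 and 1469 with TMM.

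The difference between labels in the response was tested as an interaction, which is the stimulated difference from WT minus the unstimulated one. In KO, the response of *Zc3h12c* exceeded that of WT by a log2 difference of 0.63 (SE 0.05, edgeR adjusted p = 1.23e-13) and that of *Zfp36l2* by 0.27 (SE 0.04, adjusted p = 1.31e-06), so 2 of 8 genes were called higher (5.44% of all genes higher and 3.83% lower). For *Zfp36* in KO the difference of -0.23 was not called (95% interval -0.42 to -0.05, edgeR adjusted p = 0.116). *Zfp36* was thus higher in KO in both states, with 128.1 ± 0.638 CPM (SD, n = 2) in stimulated WT and 181.3 ± 1.93 CPM (SD, n = 2) in stimulated KO.

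In HZ, the log2 difference between the responses of HZ and WT was called above 0 in 6 of 8 genes and below 0 in none (19.9% of all genes higher and 18.6% lower). On the TMM scale the rise was larger in HZ in 5 of the 6, while *Khsrp* fell by 0.22 in WT and had a smaller change of 0.10 in HZ; with library totals *Elavl1* in WT (-0.13) and *Khsrp* in HZ (-0.13) changed sign. The largest difference was that of *Zfp36*, at 1.13 (SE 0.11, edgeR adjusted p = 2.12e-12), where its difference from WT was -0.60 at rest and 0.54 after stimulation. The differences of *Zc3h12a* (0.53, SE 0.10, edgeR adjusted p = 2.08e-05), *Zc3h12c* (0.52, SE 0.05, adjusted p = 1.82e-11), *Elavl1* (0.30, SE 0.08, adjusted p = 0.00132) and *Khsrp* (0.32, SE 0.06, adjusted p = 1.27e-05) lay in genes whose stimulated level was not above that of WT. *Rc3h1* differed by 0.23 (SE 0.08, edgeR adjusted p = 0.0156), but not with DESeq2 (adjusted p = 0.0607), and it lost the call without any of HZ stimulated replicate 1, HZ unstimulated replicate 1, WT stimulated replicate 2 and WT unstimulated replicate 2 (adjusted p from 0.0606 to 0.24). *Zfp36l1* (0.09, 95% interval -0.02 to 0.20, but 0.17 and adjusted p = 0.0128 with library totals) and *Zfp36l2* (-0.09, 95% interval -0.17 to -0.01, edgeR adjusted p = 0.0656) were not called. With library totals, 3120 genes were called higher and 1721 lower in this comparison, against 2429 and 2276 with TMM.

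Levels of different genes can be compared per length of gene model, which the deposited FPKM values allow. In unstimulated WT the order from high to low was *Zfp36l2* (127 FPKM), *Khsrp* (45.2), *Zfp36l1* (27.2), *Elavl1* (13.3), *Zc3h12c* (12.8), *Zc3h12a* (10.1), *Rc3h1* (7.71) and *Zfp36* (5.64). *Elavl1* (SD 0.255, n = 2) and *Zc3h12c* (SD 0.438, n = 2) were about as far apart as their spread, and the other neighbours were further apart than theirs. In stimulated WT it was *Zfp36l2* (228), *Zfp36l1* (112), *Zfp36* (65.6), *Zc3h12c* (36.4), *Khsrp* (31.4), *Zc3h12a* (28.6), *Elavl1* (12.2) and *Rc3h1* (8.20), with no overlap between neighbours. *Zfp36* went from the last to the third place. FPKM are scaled by library totals, so that these values carry the shift of the median described above, but ratios of genes within a library do not.

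The make-up of the ZFP36 family changed with stimulation. Its summed level was 160 ± 0.89 FPKM (SD, n = 2) in unstimulated and 405.5 ± 10.8 FPKM (SD, n = 2) in stimulated WT. *Zfp36* made up 3.52% ± 0.046 of the sum in unstimulated WT and 16.2% ± 0.52 after stimulation (SD, n = 2), and *Zfp36l1* 17% ± 0.30 and 27.5% ± 0.023. *Zfp36l2* went from 79.5% ± 0.35 to 56.3% ± 0.54 (SD, n = 2), so it still made up most of the family. In HZ the share of *Zfp36* went from 1.99% ± 0.18 to 20.3% ± 0.24, and in KO from 5.68% ± 0.15 to 19.4% ± 0.15 (SD, n = 2). The stimulated sums were 476.9 ± 8.73 FPKM in HZ and 477.2 ± 9.05 FPKM in KO (SD, n = 2), and all 4 libraries lay above the stimulated WT libraries. Per FPKM of *Elavl1*, the family sum was 12 ± 0.30 in unstimulated and 33.3 ± 1.5 in stimulated WT (SD, n = 2). In HZ it was 17.7 ± 1.8 and then 39.1 ± 0.49, and KO had 13.1 ± 0.35 and 41.1 ± 0.36.

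In the Regnase pair, the share of *Zc3h12a* was 44.1% ± 3.4 in unstimulated and 44% ± 0.53 in stimulated WT (SD, n = 2), and 45.2% ± 3.6 and 45.2% ± 0.19 in HZ. In KO it was 46.6% ± 0.024 unstimulated and 37.4% ± 0.62 stimulated (SD, n = 2). The stimulated KO libraries, at 36.9% and 37.8%, were thus the lowest of all 12, below every other library at 41.7% or more.

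**Figure D4:**
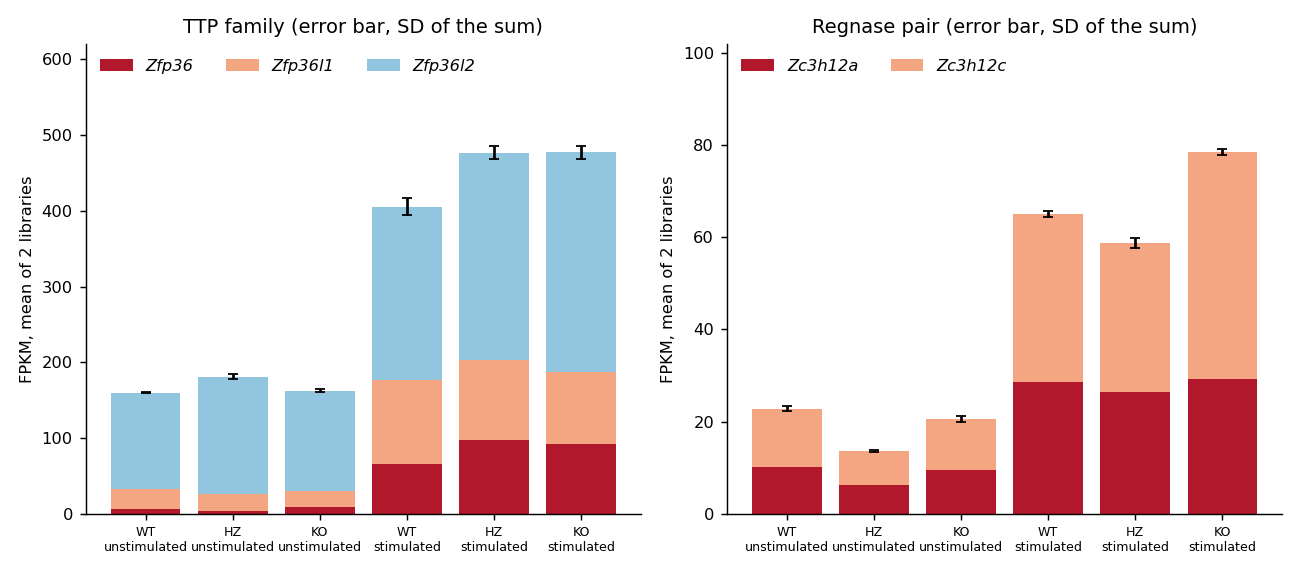
FPKM (mean of 2 libraries, vertical axis from 0) of the ZFP36 genes (left) and the Regnase pair (right), stacked by gene for each group; error bars give the SD of the sum. The ZFP36 sum goes from 160 to 405.5 FPKM in WT, with *Zfp36* going from 3.52% to 16.2% of it, and in stimulated KO *Zc3h12a* makes up 37.4% of the Regnase pair.

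Across the 12 libraries, the genes whose log2 CPM followed each induced decay factor most closely were sought in the 10774 tested genes averaging 1 CPM or more. They were *Hspa1a*, *Rasgef1b* and *Klf9* for *Zfp36* (Pearson r of 0.997, 0.997 and 0.995), *Gpr171*, *Tnfsf14* and *Zfp703* for *Zfp36l1* (0.998 each), and *Gdf15*, *Ptpn22* and *Cited2* for *Zfp36l2* (0.998, 0.996 and 0.994). For *Zc3h12a* they were *Hk2*, *Tiparp* and *Plscr1* (0.997, 0.995 and 0.995), and for *Zc3h12c* *Ccnl1*, *Rabgef1* and *Nsun6* (0.997, 0.996 and 0.994). No 2 of the 5 lists shared a gene. These values describe 12 libraries that share 6 groups and 1 large step between states, which alone gives high values. Among the 8 decay factors, r was 0.988 between *Zc3h12a* and *Zc3h12c*, 0.946 to 0.964 between *Zfp36* and its relatives, and -0.61 to 0.10 between *Khsrp* and the others.

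Of the rest of the decay machinery, the genes past 2-fold in WT code for proteins that recruit the deadenylase. Of 18 genes of deadenylation, 6 were higher and 4 lower after stimulation (22.4% of all genes higher and 22.9% lower). Their median log2 fold change was 0.01. The 2 past 2-fold were *Btg2* (5.07, edgeR adjusted p = 2.71e-44) and *Tob2* (1.87, adjusted p = 2.67e-40), followed by *Btg1* (0.95) and *Tob1* (0.85). BTG and TOB proteins bind the CCR4-NOT deadenylase. *Btg2* went from 9.48 and 6.69 to 268.6 and 273.8 CPM in WT. In stimulated KO it was at 141.9 and 146.1 CPM and in stimulated HZ at 193.8 and 195.1, below WT by log2 differences of -0.91 (edgeR adjusted p = 4.18e-19) and -0.48 (adjusted p = 3.27e-10). In these stimulated groups *Zfp36* was above WT. In unstimulated cells *Btg2* was called lower than WT under both labels, whereas *Zfp36* was lower in HZ and higher in KO. A link between *Btg2* and *Zfp36* was not tested.

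Of 15 other proteins that bind AU-rich elements or stem-loops, 1 was higher and 8 were lower in WT, with a median of -0.14 and none past 2-fold. The named ones were *Zc3h12b* (-0.66, edgeR adjusted p = 0.0256), a further Regnase gene at 2.05 to 3.95 CPM in WT, *Arid5a* (-0.54), whose protein protects *Il6* mRNA, *Tia1* (-0.38) and the helicase gene *Upf1* (-0.31). The call of *Zc3h12b* was lost when 2 of the 4 WT libraries were left out singly, with an adjusted p of up to 0.217. Of 15 genes of decapping and 5′ to 3′ decay, 0 were higher and 6 lower, with a median of -0.05, and the largest falls were those of *Ddx6* (-0.31), *Dcp1a* (-0.29), *Edc3* (-0.25) and *Edc4* (-0.24). Without WT stimulated replicate 2 or WT unstimulated replicate 1 only 3 of the 15 were lower, and with library totals 13 were. Of 14 genes of the RNA exosome and the SKI complex, which degrade RNA from the 3′ end, 0 were called in either direction in WT by edgeR or DESeq2, with a median of -0.03, while 1 was lower at an unadjusted p below 0.05 and 14 were lower with library totals. In HZ the exosome genes did change, with 11 higher and 2 lower after stimulation and a median of 0.38, and in unstimulated HZ 10 of the 14 were lower than in WT, with a median of -0.30. Over all genes, 32.9% were higher and 31.6% lower in HZ after stimulation, and 26% were lower in unstimulated HZ than in WT. In KO, 1 was higher and 1 lower after stimulation. Against these lists stand 22.4% of all genes higher and 22.9% lower in WT.

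**Figure D5:**
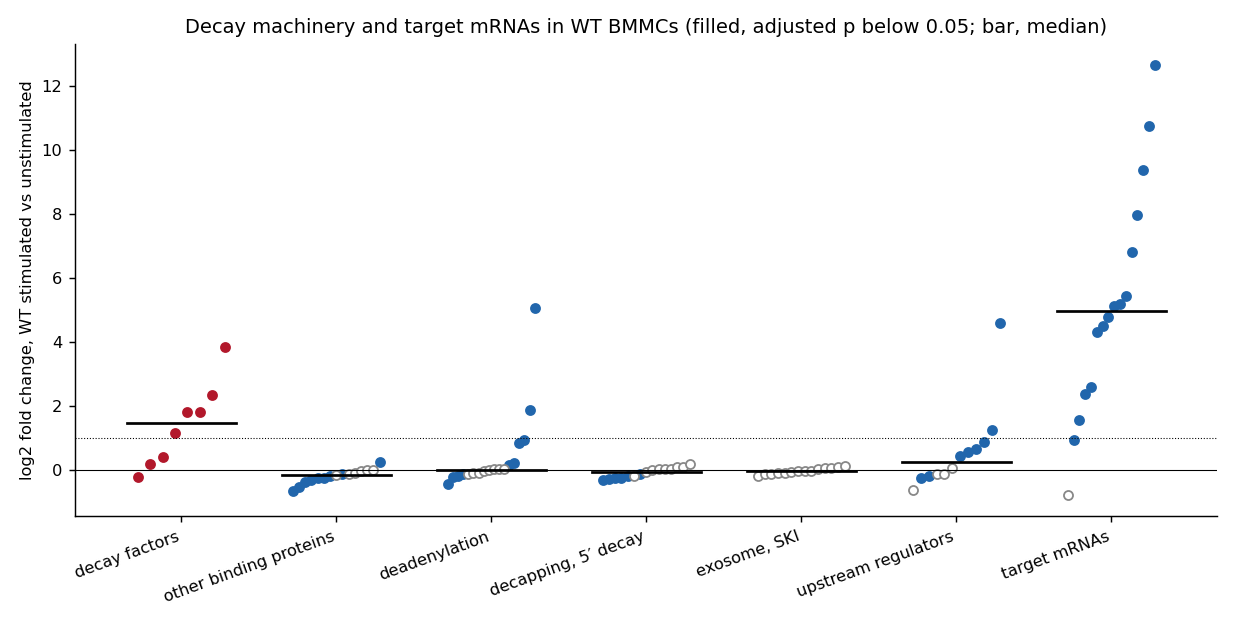
Log2 fold change in WT BMMCs, stimulated against unstimulated, of the 8 decay factors and of 6 lists of related genes (1 point per gene, filled where the adjusted p was below 0.05, with the median as a bar and 2-fold dotted). The medians are 1.48 for the decay factors, -0.14 to 0.01 for the binding, deadenylation, decapping and exosome lists, 0.26 for the upstream regulators and 4.96 for the target mRNAs; with library totals all values shift down by about the median of -0.32.

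Upstream regulators of the decay factors were measured as 12 genes, of which 6 were higher and 2 lower in WT. Over all genes 22.4% were higher and 22.9% lower. The regulators had a median of 0.26. They include the kinase MK2, which phosphorylates ZFP36, and the protease MALT1, which cuts Regnase-1. *Dusp1*, whose phosphatase switches off p38 and so MK2, rose by a log2 fold change of 4.61 (edgeR adjusted p = 1.35e-47), *Malt1* by 1.26 and *Mapkapk2* (MK2) by 0.87. *Dusp1* was at 196.5 and 196.5 CPM in stimulated WT, 425.7 and 447.5 in stimulated HZ and 522.3 and 535.1 in stimulated KO. It exceeded WT by 1.15 in HZ (edgeR adjusted p = 1.27e-28) and 1.43 in KO (adjusted p = 1.24e-32). *Zfp36* was also above WT in these stimulated groups. In unstimulated cells *Dusp1* was called lower than WT under both labels, whereas *Zfp36* was lower in HZ and higher in KO. A link between *Dusp1* and *Zfp36* was not tested. *Malt1* was at 511.8 and 498.7 CPM in stimulated WT and lower in HZ (-0.74) and KO (-0.22).

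Of 20 textbook target mRNAs listed, 16 were tested. In WT 15 of these rose and 0 fell, against 22.4% of all genes higher and 22.9% lower. Of the 16, 14 rose past 2-fold, against 3.71% of all genes. The median over the 16 was 4.96, and it was the same when the 3 genes at or near 0 counts were set to their bounds. *Csf2* went from 0 counts in both unstimulated WT libraries to 694 and 778 counts, a rise of at least 281-fold (taken against 3 counts per library). By the same floor *Il3* was at least 75.9-fold higher. *Tnf* rose by a log2 fold change of 9.38, *Ptgs2* by 7.96 and *Nfkbid* by 5.45, while *Cxcl2* had 1 and 1 counts unstimulated and 134 and 89 stimulated. Decay factors and their targets were thus higher in the same libraries at 1 h, and mRNA half-lives were not measured. Before stimulation, 11 of the 16 targets were below WT in HZ (median -0.95), as were 11 in KO (median -0.50), against 26% of all genes lower in HZ and 21.7% in KO. After stimulation, *Tnf* stood at 4324 and 4452 CPM in WT libraries, at 4258 and 4466 in HZ libraries and at 3363 and 3433 in KO libraries, with a log2 difference from WT of -0.37 in KO (edgeR adjusted p = 7.06e-16) and -0.01 in HZ (adjusted p = 0.845). *Ptgs2* was higher than in WT in both KO (0.44) and HZ (0.46). Over the list, stimulated KO had 3 targets above and 5 below WT (median -0.05), and stimulated HZ 6 above and 3 below (median 0.05). Over all genes, 21.2% were above and 19.2% below WT in stimulated KO, and 18.4% above and 16.5% below in stimulated HZ.

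Of the 8 genes, 6 share exon bases with a gene on the opposite strand in the GRCm38 annotation, and whether reads were counted by strand was not stated, so reads of such pairs cannot be told apart. The shared stretch was 1672 bases in *Zfp36l1* (with *Gm26669*), 125 in *Zfp36* (*Gm44710*), 117 in *Zc3h12c* (*Mir6244*), 105 in *Zfp36l2* (*AC132455.1*), 63 in *Khsrp* (*Gm17949*) and 56 in *Elavl1* (*Ccl25*, with 30 to 68 counts per library).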

How the data were processed

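RNA of BMMCs was measured by RNA-seq in 12 libraries, 2 for each of 6 groups given by the *Elk4* label and by treatment. The authors deposited raw read counts per gene and, for the same genes, FPKM values. The submitters' processing notes name fastp, HISAT2, HTSeq and GRCm39, without versions. The deposited FPKM values were counts divided by gene model length and library total, as the ratio of count to FPKM gave the same length in every library. They were used for levels between genes and in limma alternatives.

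Counts were tested in R 4.3.3 with edgeR 4.0.16. The filterByExpr function kept 12208 genes, libraries were scaled by TMM, and all 6 groups entered a single quasi-likelihood fit (6 residual and 38.9 prior degrees of freedom, prior count 0.125). Two-sided p-values received the Benjamini-Hochberg adjustment across the genes tested, with a call at an adjusted p below 0.05, and 11 comparisons were made. The 2-fold rule follows the study's methods. Standard errors are the log2 fold change divided by the root of F, and 95% intervals use the t distribution of the fit. Precision rests on totals of 29697958 to 35531667 counts (biological coefficient of variation 4.01%). The fits were also run on simulated counts drawn with the spread fitted to these same libraries. Such a run cannot show whether that spread is biological or technical.

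The decay factors and lists were chosen with earlier results of these data known. All decay factors are named, and from each other list up to 4 genes (6 of the targets) with the largest called change in WT, given 100 or more counts on average in whichever group was higher. Other names were chosen after their values were seen. The alternatives were DESeq2 1.42.0, DESeq2's size factors, library totals, no filter, at least 10 counts, only the groups compared, replicate blocks, an adjusted p below 0.01, limma 3.58.1 on log2(FPKM + 1) and log2(FPKM + 0.1), and leaving out each library. RefSeq and GENCODE M21 sequences are of GRCm38, the counts of GRCm39, so positions describe the former only. Some genes that this rule or the marker lists name are not reported here.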

Additional observations from a re-analysis of the deposited data

Results flagged for a closer look

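Of the 16 interactions tested for the decay factors, 8 were called, each because the response to stimulation differed between labels in a test of the difference itself. Between KO and WT these were the log2 differences of 0.27 in *Zfp36l2* and 0.63 in *Zc3h12c*. Between HZ and WT they were 1.13 in *Zfp36*, 0.53 in *Zc3h12a*, 0.52 in *Zc3h12c*, 0.23 in *Rc3h1*, 0.30 in *Elavl1* and 0.32 in *Khsrp*. On the TMM scale the rise was larger than in WT in all of these but *Khsrp*, which fell by 0.22 in WT and had a smaller change of 0.10 in HZ; with library totals *Elavl1* in WT (-0.13) and *Khsrp* in HZ (-0.13) changed sign. The HZ values stand in a comparison in which 19.9% of all genes were called higher and 18.6% lower, and the KO values in one with 5.44% higher and 3.83% lower. The 2 contrasts share the 4 WT libraries. *Rc3h1* was not called with the DESeq2 Wald test (adjusted p = 0.0607) or at an adjusted p below 0.01. With single libraries left out, its response difference between HZ and WT lay between 0.13 and 0.31. Groups of 2 libraries allow no test for a deviating library.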

How the results depend on the processing

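The 5 genes at least 2-fold higher after stimulation numbered 4 or 5 in WT and HZ and 5 in KO over all alternatives, and the direction and call of *Zfp36*, *Zfp36l1*, *Zfp36l2*, *Zc3h12a* and *Zc3h12c* in these 3 comparisons held under all of them. Counts of calls moved elsewhere. Over the alternatives, the number called higher after stimulation was 5 to 7 in WT, 7 to 8 in HZ and 6 to 7 in KO. With library totals, *Rc3h1* and *Elavl1* were no longer called higher in WT, and 2 genes instead of 1 were lower. With library totals or limma on FPKM, 1 gene instead of 0 was lower in stimulated HZ, and 1 instead of 2 was lower in stimulated HZ than in WT, as also with an adjusted p below 0.01, whereas DESeq2's size factors or only the groups compared gave 3 with *Zc3h12a*. *Zfp36l1* was called in the HZ response difference with library totals (0.17) and limma on FPKM (0.16). Limma on FPKM left 1 instead of 3 genes higher in stimulated KO than HZ, and an adjusted p below 0.01 left 1 instead of 2 lower. In unstimulated KO against WT, 1 instead of 2 genes was higher with DESeq2, its size factors, library totals, limma, an adjusted p below 0.01 or only the groups compared. In the HZ response difference, 1 gene (*Zfp36l2*) instead of 0 was lower with DESeq2 (-0.11), its size factors (-0.11) or at least 10 counts (-0.10).

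Signs turned with library totals or limma on FPKM for *Elavl1* in WT (-0.13 or -0.12) and KO (-0.09), *Khsrp* in HZ (-0.13), *Cpa3* in WT (-0.14) and *Tpsb2* in WT (-0.13), by the shift of the median that these scales carry.

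With single libraries left out, the lone library of a group is assumed to vary like the others. The number lower was 1 to 2 in stimulated HZ against WT, 0 to 2 in stimulated KO against HZ, 1 to 2 in stimulated KO against WT and 0 to 1 in the HZ response difference. The number higher was 1 to 2 in stimulated KO against HZ and 1 to 2 in unstimulated KO against WT.

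What a replicate number stands for is not stated. Differences between replicates 1 and 2 correlated at -0.0358 to 0.0629 over 15 pairs of groups, so the numbers were not taken to pair the libraries. A replicate block gave 2758 genes higher and 2812 lower in WT and changed no count of decay factors. A block within genotype added *Zfp36l2* as 1 gene lower in the HZ response difference (adjusted p = 0.0472).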

Other observations

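After its values were seen, the nonamer count was set against the response of all genes with a matched UTR. In WT, 3.49% of the 10788 genes without a nonamer, 6.68% of the 733 genes with 1, 5.34% of the 131 genes with 2 and 13.9% of the 79 genes with 3 or more were at least 2-fold higher after stimulation. In KO these shares were 3.39%, 7.37%, 6.87% and 15.2%, and in HZ 6.72%, 10.9%, 11.5% and 13.9%. The share at least 2-fold lower was 2.92% without a nonamer and 3.8% with 3 or more in WT. UTRs with nonamers were longer, with a median of 1064 bases without and 2677 bases with 3 or more, and the part of length in these shares was not tested. *Elavl1*, with 8 nonamers, is in the last of these classes. On the TMM scale with all libraries, it changed by at most 0.48 (log2) in any label. The list of targets contributes to it too, with *Tnf* (5), *Csf2* (4) and *Cxcl2* (4).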
